A study of Mus musculus with 12 samples.

Results

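AMP-activated protein kinase (AMPK) was examined in mouse left ventricle through 9 genes: the catalytic subunits Prkaa1 and Prkaa2, the beta subunits Prkab1 and Prkab2, the gamma subunits Prkag1 and Prkag2, the upstream kinases Stk11 and Camkk2, and the substrate Acacb. They were chosen by name, with earlier results of these data known, and the gene identifiers of the deposited table were matched to these symbols. All 9 were found among the 18079 genes listed, and all 9 were among the 11664 that were tested, those with an FPKM of 1 or more in 3 or more of the 12 libraries. FPKM is the number of sequenced fragments scaled by transcript length and by library size.

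AMPK is an energy sensor built from 1 catalytic alpha, 1 beta and 1 gamma subunit. The gamma subunit binds AMP, ADP and ATP, the beta subunit carries a glycogen-binding module and holds the complex together, and the alpha subunit is active once its activation loop has been phosphorylated by LKB1 (encoded by Stk11) or by CaMKK2. In heart muscle the kinase is known for promoting glucose uptake and fatty acid oxidation when ATP runs low, the latter by phosphorylating and inhibiting acetyl-CoA carboxylase 2 (encoded by Acacb), the mitochondrial enzyme whose product malonyl-CoA blocks fatty acid entry. The values here are mRNA levels, and neither phosphorylation nor protein was measured in these libraries.

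Left ventricular muscle was taken from 12 C57BL/6 mice (C57BL/6J in the study's methods), 1 library per mouse and 3 mice in each of 4 groups: DMSO+Sham and DMSO+AB on the solvent, Hispidulin+Sham and Hispidulin+AB on the drug. AB is aortic banding, a ligature that narrows the descending aorta and raises the pressure load on the ventricle, and Sham is the same operation without the ligature. By the labels, surgery was done at 8 weeks of age and hearts were collected 4 weeks later, at 12 weeks; the study's methods give a range of ages at surgery that starts at 8 weeks. Hispidulin, a plant flavone, was injected into the peritoneum at 20 mg/kg/day from the day before surgery until collection, and DMSO, its solvent, was given on the same schedule to the other mice, which therefore were not untreated. The study's methods describe male mice assigned to the groups at random.

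The FPKM of a library summed to between 535235 and 567027. Because the files give no read numbers, the depth is unknown and the counting error of the values cannot be estimated. Ventricular muscle markers were high in every library, with a summed FPKM of 36024 to 53163 over 6 genes. The load markers Nppa, Nppb and Acta1 were higher in DMSO+AB than in DMSO+Sham by 4.54, 3.08 and 4.12 on the log2 scale (limma, adjusted p = 0.0121, 0.0036 and 0.0032), whereas Myh7 differed by 1.55 and did not pass (adjusted p = 0.182). The third DMSO+Sham library stood apart, with the lowest median Spearman correlation to the others, 0.956, and the highest summed macrophage markers, 157 FPKM over 4 genes against 71.7 to 135 elsewhere. Atrial muscle mRNA was uneven: Myl7 reached 333 FPKM in Hispidulin+Sham mouse 3, 67.5 in DMSO+AB mouse 2 and 42.3 in Hispidulin+AB mouse 3, against 0.24 to 15.03 in the other 9 mice. The summed FPKM of Myl7, Myl4 and Sln was 14.8 to 40.0 in DMSO+Sham, 3.06 to 172 in DMSO+AB, 2.53 to 774 in Hispidulin+Sham and 4.42 to 91.0 in Hispidulin+AB (the fourth atrial marker, Bmp10, was not analysed here), and results are also given without those 3 libraries where this ended a call.

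The 3 genes that changed with banding were Prkab1, Prkab2 and Acacb. Their promoters, 250 bases before to 50 bases after the transcript start, are shown because these genes carry the banding result. They were read from the RefSeq table for GRCm38.p6, in which all 9 genes were matched. Capitals mark GC boxes, the letters GGGCGG or CCGCCC, and TATA boxes, the letters TATAAA or TTTATA.
Prkab1 (GRCm38.p6, chr5:116024379-116024678, minus strand): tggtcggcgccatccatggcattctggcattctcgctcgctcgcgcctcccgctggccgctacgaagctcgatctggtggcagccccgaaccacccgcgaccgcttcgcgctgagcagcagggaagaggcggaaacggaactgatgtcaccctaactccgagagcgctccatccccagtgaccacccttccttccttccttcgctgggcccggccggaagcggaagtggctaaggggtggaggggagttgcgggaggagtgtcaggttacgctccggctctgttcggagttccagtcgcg
Prkab2 (GRCm38.p6, chr3:97657962-97658261, plus strand): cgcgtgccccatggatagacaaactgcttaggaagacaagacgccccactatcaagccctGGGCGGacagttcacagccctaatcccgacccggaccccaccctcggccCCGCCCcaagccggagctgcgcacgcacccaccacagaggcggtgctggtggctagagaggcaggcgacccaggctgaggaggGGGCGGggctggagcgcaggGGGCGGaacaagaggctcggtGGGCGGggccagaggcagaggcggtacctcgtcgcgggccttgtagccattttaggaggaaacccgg
Acacb (GRCm38.p6, chr5:114165268-114165567, plus strand): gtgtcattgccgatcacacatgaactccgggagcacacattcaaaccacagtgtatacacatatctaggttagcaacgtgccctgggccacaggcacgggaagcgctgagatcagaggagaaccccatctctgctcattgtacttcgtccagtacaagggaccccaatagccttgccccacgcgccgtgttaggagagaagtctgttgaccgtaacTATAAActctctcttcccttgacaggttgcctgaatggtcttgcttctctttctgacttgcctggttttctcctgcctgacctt
The Prkab2 promoter held 5 GC boxes, while the Prkab1 and Acacb windows held 0. The window of Prkaa1, which did not pass under banding, also held 5. At least 1 GC box was present in 35.7% of the 32851 promoters of that table. Acacb held 1 TATA box, which 13.6% of all promoters held, and Prkab1 and Prkab2 held none. The GC content was 65.3% in Prkab1, 68.0% in Prkab2 and 51.7% in Acacb, against a median of 52.7% over all promoters. These matches are letters in a window and were not tested for use by any factor.

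The beta subunits exchanged rank under banding. Prkab1 (gene identifier 19079) fell and Prkab2 (108097) rose in DMSO+AB against DMSO+Sham, and both differences separated all AB from all Sham mice. Prkab1 stood at 20.9, 19.3 and 24.2 FPKM in DMSO+Sham, at 18.0, 17.2 and 17.9 in Hispidulin+Sham, at 11.7, 12.0 and 14.3 in DMSO+AB, and at 12.3, 15.6 and 13.7 in Hispidulin+AB. The highest AB value was below the lowest Sham value. In DMSO-treated mice the difference was -0.72 on the log2(FPKM + 1) scale (SE 0.12, 95% interval -0.98 to -0.46, limma, adjusted p = 0.0107). Averaged over both drugs it was -0.53 (SE 0.08, adjusted p = 0.00535). Prkab1 passed in 15 of 17 other fits in DMSO-treated mice (limma, adjusted p up to 0.132). Averaged over drugs it passed in 21 of 22 (up to 0.103).

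Prkab2 stood at 12.9, 14.9 and 12.4 FPKM in DMSO+Sham, at 12.2, 15.9 and 13.9 in Hispidulin+Sham, at 23.6, 24.4 and 22.2 in DMSO+AB, and at 17.8, 16.2 and 22.9 in Hispidulin+AB. All 6 AB values were above all 6 Sham values, by a narrow margin for Hispidulin+AB mouse 2. The difference in DMSO-treated mice was 0.76 (SE 0.14, 95% interval 0.47 to 1.06, limma, adjusted p = 0.0121), and averaged over both drugs it was 0.58 (SE 0.10, adjusted p = 0.00582). Prkab2 passed in 13 of 17 other fits in DMSO-treated mice (limma, adjusted p up to 0.0906). Averaged over drugs it passed in 21 of 22 (up to 0.0875).

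Since FPKM is scaled by length, the levels of both genes in a mouse were set side by side. Which gene ranks higher rests on the transcript lengths used for the scaling, and their annotation is not given. Prkab2 exceeded Prkab1 in 6 of 6 AB mice and in 0 of 6 Sham mice. The beta 2 share of the summed beta FPKM was 38.6% ± 4.81 in DMSO+Sham, 64.9% ± 3.54 in DMSO+AB, 44.1% ± 3.84 in Hispidulin+Sham and 57.5% ± 6.00 in Hispidulin+AB (SD, n = 3 each). It averaged 61.2% after AB and 41.3% after Sham, a difference of 19.9 percentage points in an exact two-sided permutation test with labels exchanged within each drug (p = 0.005, the smallest p the 12 mice allow, adjusted p = 0.03 over 6 share tests). Without the 3 libraries with high Myl7 the difference was 18.6 points (exact permutation p = 0.0167, the smallest the remaining 9 mice allow, which on its own becomes 0.1 after adjustment over 6 tests, so that a share alone could not pass). This share is built from the same values as the per-gene tests and is not separate evidence. The summed beta FPKM moved little in comparison, from 30.0 to 36.7 over the 12 mice. Its means were 34.9 ± 1.55 in DMSO+Sham, 36.0 ± 0.626 in DMSO+AB, 31.7 ± 1.45 in Hispidulin+Sham and 32.8 ± 3.39 in Hispidulin+AB (SD, n = 3 each).

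**Figure D1:**
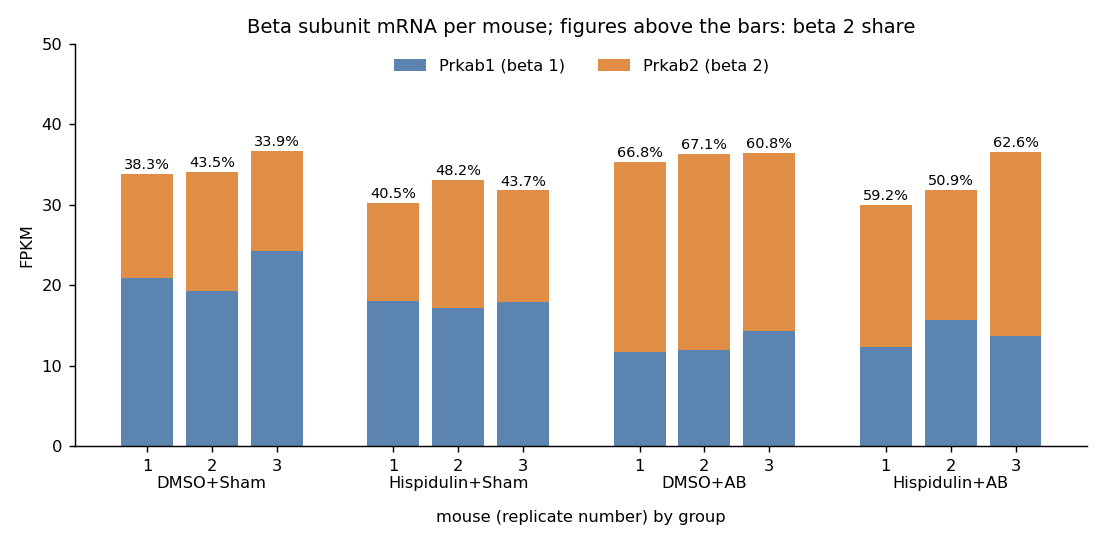
Stacked FPKM of Prkab1 (blue) and Prkab2 (orange) in each of the 12 mice, by group and replicate number, with the beta 2 share above each bar. The share lies between 33.9% and 48.2% in the 6 Sham mice and between 50.9% and 67.1% in the 6 AB mice, while the bar heights stay between 30.0 and 36.7.

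The catalytic subunits showed no difference that passed the test. Prkaa2 (108079), the isoform that predominates in heart and skeletal muscle, lay between 14.1 and 21.0 FPKM with group means of 17.5 ± 3.15 in DMSO+Sham, 17.3 ± 1.29 in DMSO+AB, 19.6 ± 1.78 in Hispidulin+Sham and 17.2 ± 1.06 in Hispidulin+AB (SD, n = 3). Prkaa1 (105787), the more widely expressed isoform, lay between 4.97 and 6.79 FPKM, with group means between 5.65 and 5.83. Prkaa2 was the higher of the pair in every mouse. In DMSO+AB against DMSO+Sham the differences were 0.04 for Prkaa1 (95% interval -0.22 to 0.31) and -0.01 for Prkaa2 (-0.29 to 0.28), and neither interval reached the differences seen for Prkab1 and Prkab2. The alpha 2 share averaged 74.7% after AB and 76.3% after Sham (difference -1.63 points, exact permutation p = 0.385). The lowest alpha 2 share, 69.4%, was that of the third DMSO+Sham library, which had both the lowest Prkaa2 (14.1) and a high Prkaa1 (6.22).

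Among the gamma subunits Prkag1 (19082) had the highest mean level of the 9 genes, at 64.1 to 71.9 FPKM in DMSO+Sham, 56.7 to 64.4 in DMSO+AB, 73.9 to 77.8 in Hispidulin+Sham and 56.5 to 67.2 in Hispidulin+AB. Both AB ranges overlapped the DMSO+Sham range and lay below the Hispidulin+Sham range. The difference averaged over both drugs was -0.23 (SE 0.07, limma, adjusted p = 0.0555) and did not pass. It passed without DMSO+Sham mouse 3 (adjusted p = 0.0395), without DMSO+AB mouse 3 (0.0451), after quantile normalization (0.0354) and with library weights (0.00843).

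Prkag2 (108099), the gamma gene in which mutations cause a human cardiomyopathy with glycogen storage, stood at 11.7, 13.8 and 8.94 FPKM in DMSO+Sham, at 11.7, 14.2 and 16.4 in Hispidulin+Sham, at 13.2, 23.9 and 15.2 in DMSO+AB, and at 13.3, 16.2 and 14.1 in Hispidulin+AB. DMSO+AB mouse 2 was far above the rest, and the highest Sham value was that of Hispidulin+Sham mouse 3; both libraries were among the 3 with high atrial Myl7, whose part in these values was not tested. The DMSO+AB against DMSO+Sham difference was 0.54 (SE 0.21, unadjusted p = 0.0235, limma, adjusted p = 0.165). Without DMSO+AB mouse 2 it was 0.30. Prkag3, the gamma 3 subunit of fast skeletal muscle, was listed at 0.8 to 1.52 FPKM and did not pass in any comparison.

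The gamma 2 share of the summed gamma FPKM averaged 20.2% after AB and 14.8% after Sham, a difference of 5.40 points in the exact permutation test (p = 0.01, adjusted p = 0.03 over the 6 share tests). DMSO+AB mouse 2 had a share of 28.3% against 17.1% to 19.5% in the other 5 AB mice, and the difference without that mouse was 3.79 points (adjusted p = 0.045). Without DMSO+Sham mouse 3 the adjusted p was 0.06 (4.86 points). Without the 3 libraries with high Myl7 the difference was 4.18 points (exact permutation p = 0.0333, adjusted p = 0.1, in the same 9 mice, where a share alone could not pass). The AB and Sham ranges, 17.1% to 28.3% and 12.1% to 17.9%, overlapped through Hispidulin+Sham mouse 3.

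Of the upstream kinases, Stk11 (20869) lay between 50.1 and 74.0 FPKM, second among the 9 genes, and Camkk2 (207565), the calcium-dependent kinase, between 2.66 and 5.97, the lowest of them. Stk11 group means were 66.1 ± 9.64 in DMSO+Sham, 60.0 ± 9.37 in DMSO+AB, 60.6 ± 4.12 in Hispidulin+Sham and 56.5 ± 5.55 in Hispidulin+AB (SD, n = 3), with overlap in every comparison. Camkk2 stood at 3.16, 3.37 and 5.97 in DMSO+Sham, 2.95, 2.66 and 3.04 in Hispidulin+Sham, 3.56, 4.39 and 3.74 in DMSO+AB, and 3.59, 3.08 and 4.15 in Hispidulin+AB. The value of 5.97 was from the DMSO+Sham library that stood apart and had the highest summed macrophage markers, whose part in it was not tested. In DMSO+AB against DMSO+Sham the differences were -0.14 for Stk11 (95% interval -0.44 to 0.17) and -0.04 for Camkk2 (-0.43 to 0.35), and neither passed (limma, adjusted p = 0.618 and 0.923).

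Acacb (100705) fell with banding, though this call was lost in most other fits of the DMSO-treated mice. It stood at 60.8, 42.1 and 55.0 FPKM in DMSO+Sham, at 50.0, 54.9 and 42.8 in Hispidulin+Sham, at 37.5, 28.7 and 37.4 in DMSO+AB, and at 38.5, 38.7 and 41.6 in Hispidulin+AB. The 6 AB values were all below the 6 Sham values, the closest pair being 41.6 and 42.1. The difference was -0.59 in DMSO-treated mice (SE 0.15, 95% interval -0.91 to -0.26, limma, adjusted p = 0.0441), a call made in 6 of 17 other fits (adjusted p up to 0.241), and -0.44 averaged over both drugs (SE 0.11, adjusted p = 0.0275). The averaged difference passed in 12 of 22 other fits, and did not pass without DMSO+Sham mouse 1, Hispidulin+Sham mouse 1 or 2, DMSO+AB mouse 2, or any 1 of the Hispidulin+AB mice (adjusted p between 0.0575 and 0.0776).

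**Figure D2:**
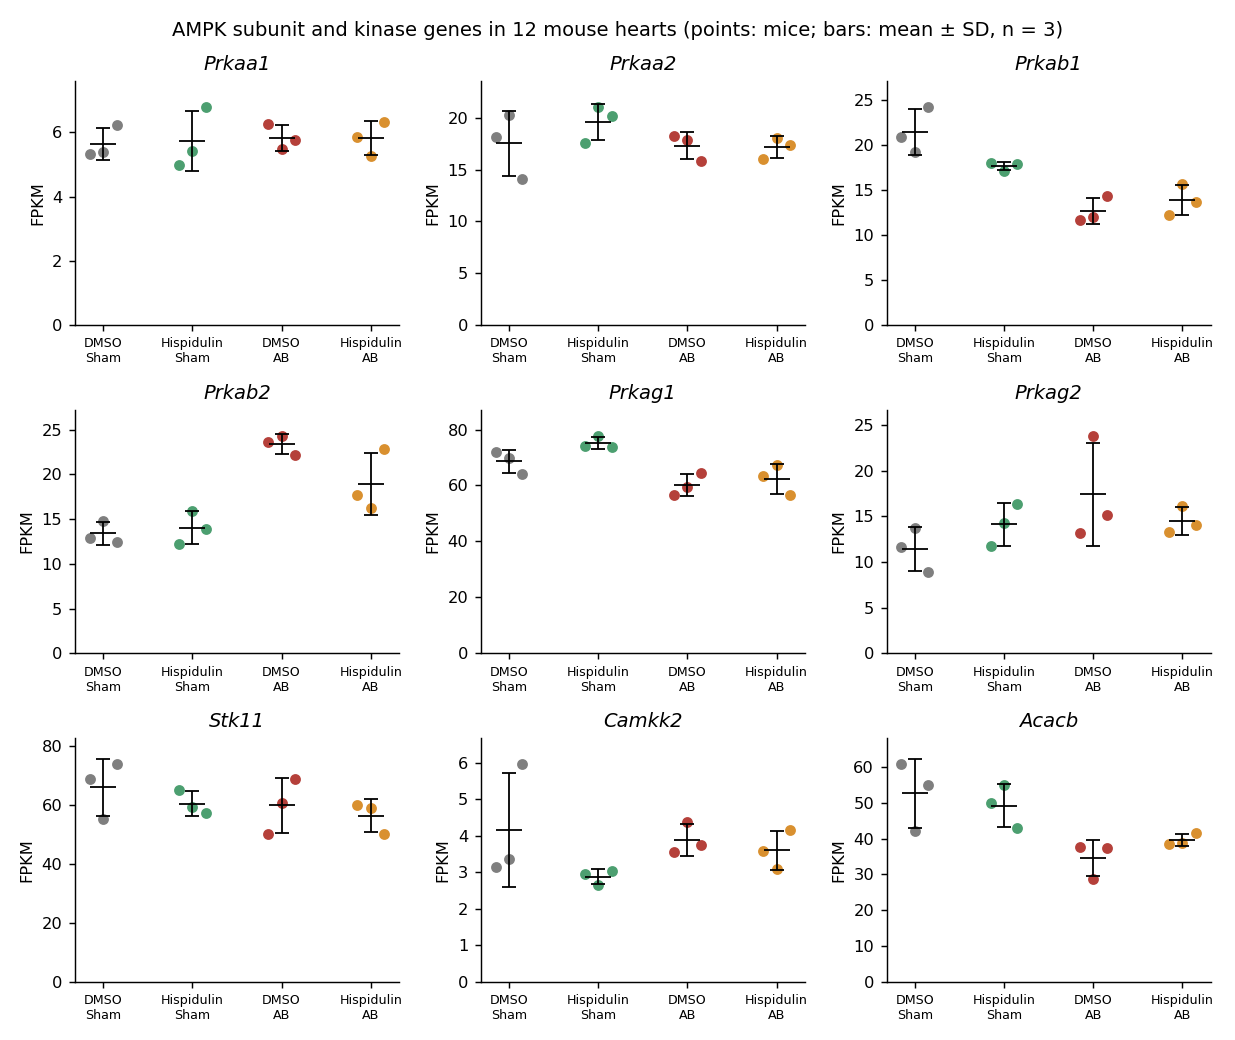
FPKM of the 9 genes in the 12 mice, 1 panel a gene, with each point a mouse and the bars the group mean ± SD (n = 3). Prkab1 and Acacb sit lower and Prkab2 higher in all AB mice than in all Sham mice, while Prkaa1, Prkaa2, Stk11 and Camkk2 overlap between DMSO+AB and DMSO+Sham.

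In all, 3 of the 9 genes passed in DMSO+AB against DMSO+Sham, against 5.21% of all genes tested; 1 was higher and 2 were lower, against 2.5% and 2.71% of all genes. The groups did not overlap for these 3 genes, against 17.9% of all genes. Averaged over drugs the same 3 genes passed, against 7.39% of all genes, and 3 of the 9 separated all 6 AB from all 6 Sham mice, against 4.96%. The median difference of the 9 genes was -0.04 in DMSO-treated mice, and that of all genes was -0.03. The calls changed with the libraries in the fit, and so did the count over all genes, which was 608. It was 91 without DMSO+Sham mouse 1, 104 without DMSO+AB mouse 2, 190 without DMSO+AB mouse 3, 953 without DMSO+AB mouse 1 and 1050 without DMSO+Sham mouse 2. Fitted to the 6 DMSO mice alone, none of the 9 genes passed (adjusted p = 0.126 for Prkab1, 0.0906 for Prkab2 and 0.231 for Acacb) and 11 genes passed in all. Without the 3 libraries with high Myl7, none passed either (adjusted p = 0.132, 0.0879 and 0.241), with differences of -0.68, 0.73 and -0.46, and 20 genes passed in all. Averaged over drugs none passed without them either (adjusted p = 0.103, 0.0875 and 0.129), where 74 genes passed in all. In DMSO-treated mice Prkab1 passed with each single library left out, Prkab2 did not without DMSO+Sham mouse 1 (adjusted p = 0.0543) or DMSO+AB mouse 2 (0.0566), and Acacb did not without DMSO+Sham mouse 1 or 3 or DMSO+AB mouse 2 or 3 (adjusted p between 0.0776 and 0.167).

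Some markers of other cell types also moved with banding. Of 5 fibroblast genes, Col1a1, Col1a2 and Postn rose in DMSO+AB against DMSO+Sham, and the summed FPKM of the 5 was 315 to 386 in DMSO+Sham, 345 to 827 in DMSO+AB, 309.8 to 418 in Hispidulin+Sham and 347 to 534 in Hispidulin+AB. None of the 6 ventricular muscle, 3 atrial muscle, 5 endothelial, 4 smooth muscle, 4 macrophage or 3 red blood cell markers passed in that comparison. Averaged over drugs the same 3 fibroblast genes passed, and so did 1 of the 4 smooth muscle and pericyte markers, Tagln, at 0.49 (limma, adjusted p = 0.043). The other markers of that list did not rise with it, and the median averaged difference of the 4 was -0.17. Mean FPKM of Rgs5 and Acta2 was lower in AB than in Sham in DMSO-treated and in hispidulin-treated mice. That of Myh11 was lower in DMSO-treated mice (6.64 in Sham, 5.12 in AB) but not in hispidulin-treated mice (6.82 and 7.29). The summed FPKM of those 4 was 181 to 255 in DMSO+Sham, 161 to 233 in DMSO+AB, 249.5 to 420 in Hispidulin+Sham and 215 to 268 in Hispidulin+AB, overlapping between AB and Sham. In bulk tissue fewer cells of a type and less RNA per cell cannot be told apart, and the part of these shifts in the AMPK gene differences was not tested. The label numbers of the animals fall into separate series. Those with mice of both operations held 2 AB and 3 Sham mice, and 4 AB and 2 Sham mice. Prkab1, Prkab2, Acacb and the beta 2 share separated AB from Sham mice within both of these series. That follows from their separation over all mice, so it is not a test of the series.

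Whether hispidulin moved these genes was asked first in banded hearts. For Hispidulin+AB against DMSO+AB, limma called 0 of the 9 genes (adjusted p from 0.996 to 0.999), against 0% of all genes. Without adjustment 1 of the 9 was under 0.05, against 3.1% of all genes. That gene was Prkab2, at 17.8, 16.2 and 22.9 FPKM with hispidulin and 23.6, 24.4 and 22.2 without; the groups overlapped, and the difference was -0.30 (95% interval -0.60 to -0.01, unadjusted p = 0.0455). Acacb was above all DMSO+AB values in all 3 Hispidulin+AB mice, a separation found in 7.88% of all genes in either direction, with a difference of 0.20 (95% interval -0.13 to 0.53). Prkab1 differed by 0.12 (-0.14 to 0.38). For the remaining 6 genes the intervals ran from -0.66 to 0.24 for Prkag2 at the widest and from -0.15 to 0.25 for Prkag1 at the narrowest, and differences inside those intervals could not be told from 0 with 3 mice a group. The beta 2 share differed by -7.37 points (exact permutation p = 0.2, where 3 against 3 cannot go below 0.1).

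In sham-operated hearts, Hispidulin+Sham against DMSO+Sham, limma called 0 of the 9 genes (adjusted p = 1.00 for each), against 0% of all genes. Without adjustment 1 of the 9 was under 0.05, against 2.46% of all genes. Prkab1 differed by -0.26 (unadjusted p = 0.0496), and Camkk2 by -0.37 (95% interval -0.76 to 0.02), which became -0.14 without the third DMSO+Sham library. For Hispidulin+AB against Hispidulin+Sham, limma called 0 of the 9 (0% of all genes; with the replicate number as a block, 0 of the 9 and 17 genes in all, and with library weights 0 of the 9 and 209 genes), and 3 were under 0.05 without adjustment, against 7.26% of all genes. Those 3 were Prkab1 at -0.34, Prkab2 at 0.40 and Prkag1 at -0.27 (95% intervals -0.60 to -0.07, 0.11 to 0.70 and -0.47 to -0.07), in the same direction as in the DMSO-treated mice. Whether banding acted differently with the drug was tested as an interaction, which limma called for 0 of the 9 (0% of all genes); without adjustment 1 was under 0.05, against 2.48% of all genes. That gene was Prkab1, with an interaction of 0.38 (95% interval 0.01 to 0.75, unadjusted p = 0.0431). The comparisons with a group in common share its mice.

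**Figure D3:**
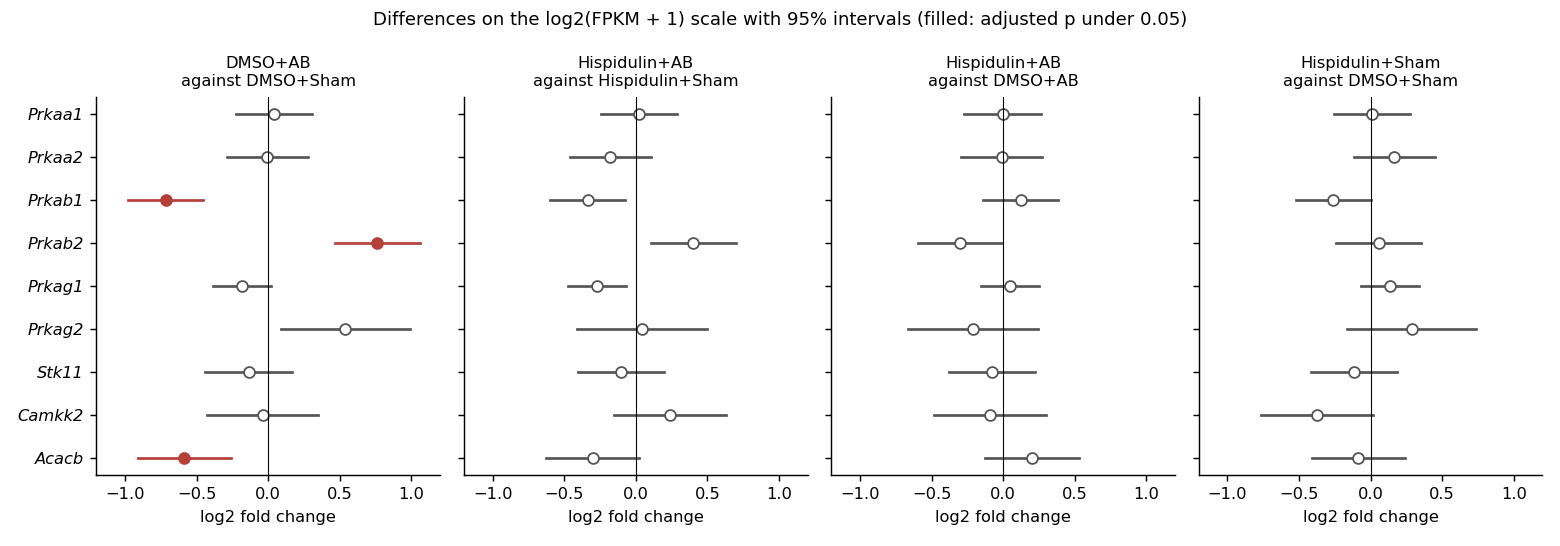
Differences of the 9 genes in 4 comparisons on the log2(FPKM + 1) scale, with 95% intervals from limma; filled red points have an adjusted p under 0.05. Prkab1 at -0.72, Prkab2 at 0.76 and Acacb at -0.59 are filled in DMSO+AB against DMSO+Sham, and no point is filled in the other 3 panels.

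By mean FPKM over the 12 mice the order was Prkag1 (66.6), Stk11 (60.8), Acacb (44.0), Prkaa2 (17.9), Prkab2 (17.4), Prkab1 (16.4), Prkag2 (14.4), Prkaa1 (5.76), Camkk2 (3.64) and Prkag3 (1.19). Prkag1 exceeded Stk11 in 9 of 12 mice. The order of 3 neighbouring pairs differed between the operations: Prkaa2 exceeded Prkab2 in 6 of 6 Sham and 1 of 6 AB mice, Prkab2 exceeded Prkab1 in 0 of 6 Sham and 6 of 6 AB mice, and Prkab1 exceeded Prkag2 in 6 of 6 Sham and 0 of 6 AB mice. Every other neighbouring pair kept its order in all 12 mice. Prkaa1 and Prkag1 varied least, with the highest library 1.37 and 1.38 times the lowest, and Prkag2 most, at 2.67 times.

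Other genes of the pathway were examined in 4 lists. Among 6 LKB1 partners and other upstream kinases, 5 were tested and 0 passed in DMSO+AB against DMSO+Sham. The largest differences were -0.45 for Cab39l and 0.10 for Cab39, both encoding MO25 scaffold proteins of the LKB1 complex. Among 10 phosphatases and folliculin partners, 1 rose and 0 fell, against 2.5% higher and 2.71% lower over all genes. That gene was Ppp1r3c, which targets protein phosphatase 1 to glycogen. It stood at 57.6, 62.2 and 46.3 FPKM in DMSO+Sham and at 125, 119 and 148 in DMSO+AB, a difference of 1.23 (SE 0.15, limma, adjusted p = 0.00376). In Hispidulin+Sham it was at 74.6, 88.5 and 104, and in Hispidulin+AB at 128, 103 and 115, so that the AB and Sham groups overlapped over both drugs. All Hispidulin+Sham values were above all DMSO+Sham values, with a difference of 0.68 (limma, unadjusted p = 0.000714, adjusted p = 1.00). The banding difference was 0.38 in hispidulin-treated mice (unadjusted p = 0.0271, adjusted p = 0.634), and the interaction was -0.85 (95% interval -1.31 to -0.39, unadjusted p = 0.00167, adjusted p = 1.00).

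Among 14 AMPK-related kinases, 10 were tested, 1 rose (against 2.5% of all genes) and 0 fell. Nuak1, a kinase activated by LKB1, stood at 8.17, 10.9 and 12.2 FPKM in DMSO+Sham and at 33.0, 17.9 and 23.8 in DMSO+AB (difference 1.16, SE 0.22, limma, adjusted p = 0.016). Its 6 AB values were above its 6 Sham values. It did not pass without the 3 libraries with high Myl7 (1.37, adjusted p = 0.0542), without DMSO+Sham mouse 1 (0.0735) or without DMSO+AB mouse 3 (0.0526), while averaged over both drugs it passed in every fit tried. The median difference of the 10 was -0.04.

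Among 27 substrates and targets, all tested, 0 rose and 3 fell (against 2.71% of all genes), with a median difference of -0.26 against -0.03 over all genes. Tbc1d4, which encodes the GTPase-activating protein AS160 that retains the glucose transporter GLUT4 inside the cell, was at 26.2, 24.7 and 23.6 FPKM in DMSO+Sham and at 13.0, 12.3 and 9 in DMSO+AB (difference -1.07, SE 0.15, limma, adjusted p = 0.00425). Tbc1d4 did not pass without the 3 libraries with high Myl7 (-1.12, adjusted p = 0.0542), while averaged over both drugs it passed in every fit tried. Mlycd, encoding the malonyl-CoA decarboxylase that removes the product of the Acacb enzyme, fell by 0.68 on the log2 scale (adjusted p = 0.0426). Foxo3, a transcription factor, fell by 0.66 (adjusted p = 0.0464). Neither Mlycd nor Foxo3 passed without the 3 libraries (adjusted p = 0.212 and 0.26), without DMSO+Sham mouse 1 or 3, or without any 1 of the DMSO+AB mice (adjusted p between 0.0513 and 0.163). Averaged over both drugs 4 of the 27 passed, against 7.39% of all genes: these 3 genes and Slc2a4, which encodes GLUT4, the last at -0.35 (adjusted p = 0.0487), which did not pass in 15 of 22 other fits. Without the 3 libraries Mlycd, Foxo3 and Slc2a4 did not pass averaged over drugs (adjusted p = 0.126, 0.221 and 0.226). Mlycd did not pass in 3 of the 22 fits and Foxo3 in 5. None of the genes of the 4 lists passed for hispidulin in banded or in sham-operated mice, for banding in hispidulin-treated mice, or as interaction (limma). Of the 52 genes tested over the 4 lists, the number under 0.05 without adjustment was 0 for the drug in banded mice (against 3.1% of all genes) and 2 for the drug in sham-operated mice (Ppp1r3c and Nuak2, against 2.46%). It was 6 for banding in hispidulin-treated mice (Ppp1r3c, Nuak1, Mlycd, Tbc1d4, Foxo3 and Nos3, against 7.26%) and 3 as interaction (Ppp1r3c, Fnip2 and Tbc1d4, against 2.48%).

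**Figure D4:**
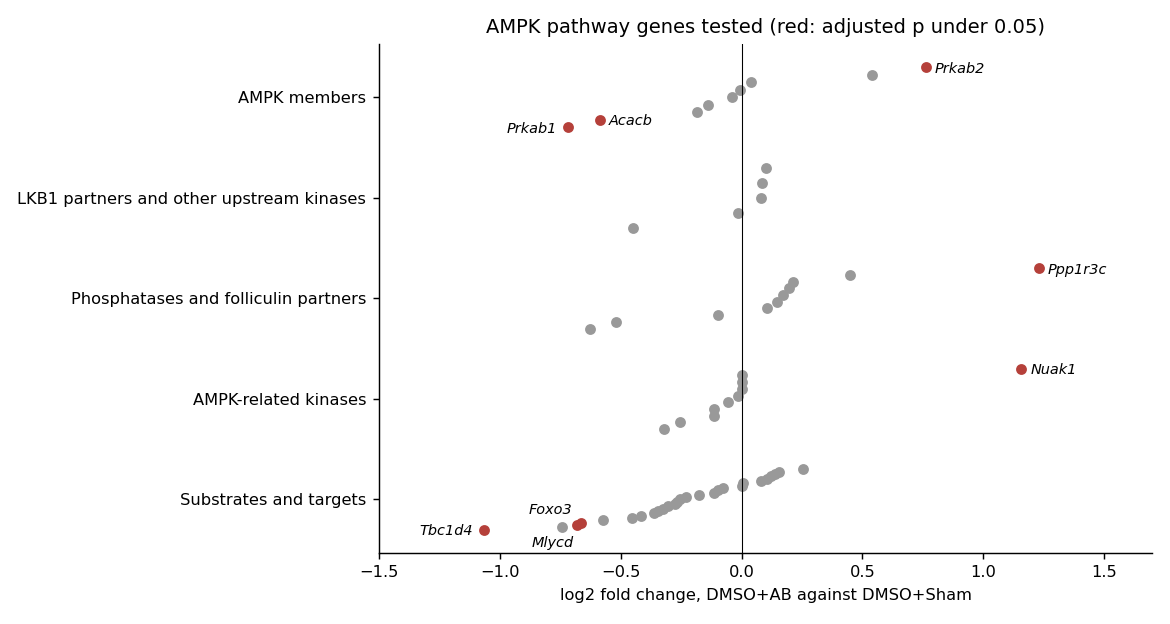
Differences in DMSO+AB against DMSO+Sham on the log2(FPKM + 1) scale for every tested gene of the 9 AMPK genes and 4 lists, 1 point a gene, with genes of adjusted p under 0.05 in red and named. Ppp1r3c at 1.23 and Nuak1 at 1.16 lie furthest right and Tbc1d4 at -1.07 furthest left.

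The genes whose log2(FPKM + 1) followed each AMPK gene most closely over the 12 libraries were named by Pearson correlation, as a description over mice that share group and library. For Prkab1 they were Cnot10 (r = 0.963), Rab12 (0.951) and Amigo1 (0.949), and for Prkab2 they were Sox9 (0.962), Tnfrsf23 (0.961) and Samd4 (0.957). Acacb was followed by Wnk2 (0.968), Psap (0.965) and Plin4 (0.963), the last a lipid droplet coat protein. Prkag2 was followed by Synm (0.954), Pgk1 (0.953) and Ptn (0.946), and Prkaa2 by Tmem65 (0.956), Cap2 (0.936) and Ebag9 (0.933). Camkk2 was followed by Lcp1 (0.938), Ifi35 (0.937) and Gas7 (0.937), and Lcp1 encodes a leukocyte actin-bundling protein. Stk11 was followed by Spns1 (0.941), Get3 (0.934) and Dalrd3 (0.913), and Prkag1 by Bcl11a (0.916), Myo5c (0.914) and Inmt (0.910). The matches of Prkaa1, Smad4 (0.868), 1700056E22Rik (0.849) and Dyrk1a (0.823), were the weakest.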

How the data were processed

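RNA from left ventricular muscle of 12 mice was read as single-end 50-base reads on a BGISEQ-500. The authors deposited FPKM for 18079 genes in 1 table rounded to 0.01. The submitters' processing notes name HISAT2 2.0.4, Bowtie2 2.2.5, RSEM 1.2.12 and DESeq2 1.4.5; the genome build and annotation are not given in the sources used here. Depth is unknown. Symbols were found for 17947 genes (99.3%). Groups were taken from the sample titles.

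Log2(FPKM + 1) of all 12 libraries was fitted in limma 3.58.1 (R 4.3.3) with a mean for each group, with a mean-variance trend and 8 error degrees of freedom, for the 11664 genes at FPKM 1 or more in 3 or more libraries. Tests were two-sided, with Benjamini-Hochberg adjustment over those genes. Isoform shares were compared with exact permutation tests (Python 3.11.15). Scripts were tested on simulated data.

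The 9 genes, the 4 pathway lists and the marker lists were chosen with earlier results of these data known. Named were the 9 genes, Prkag3, list genes with an adjusted p under 0.05 (at most 6 a list) or otherwise the 2 largest differences, the 3 genes most correlated with each of the 9, and Nppa, Nppb, Myh7 and Acta1. Nuak2, Nos3, Fnip2 and the cell type markers fall outside this rule and were named after their values were seen.

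Replicate numbers belong to different animals. Residuals of same-numbered mice correlated by -0.198 to -0.0239 in DMSO+AB against DMSO+Sham, -0.183 to 0.300 in Hispidulin+AB against DMSO+AB, 0.126 to 0.330 in Hispidulin+Sham against DMSO+Sham and 0.147 to 0.228 in Hispidulin+AB against Hispidulin+Sham, so the numbers met the criterion for pairing, every correlation over 0.1, only in the last 2. The fit described above holds no block; the block was an alternative in all 6 comparisons. Alternatives were quantile normalization or median-of-ratios scaling, a filter at FPKM 5 or none, 0.1 in place of 1 inside the logarithm, weighted libraries, a fit without trend, the replicate block, the animal number series, a fit to the compared libraries alone, each library left out, and the 3 high-Myl7 libraries left out; the called pathway genes were added to them after seeing the data.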

Additional observations from a re-analysis of the deposited data

How the results depend on the processing

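With 3 mice a group and unknown depth, small differences could not be resolved. The count of AMPK genes that passed in DMSO+AB against DMSO+Sham was 3; it was 0 with only the libraries compared, 0 without the 3 libraries with high Myl7, and 1 to 3 with 1 library left out, the 1 being Prkab1 without DMSO+Sham mouse 1 or DMSO+AB mouse 2. Averaged over drugs it was 3, 0 without the 3 libraries, and 2 to 4 with 1 left out. Acacb did not pass in DMSO+AB against DMSO+Sham without a filter (adjusted p = 0.0721), without the trend (0.0521), under quantile normalization (0.0569), median-of-ratios scaling (0.0765) or the animal number series (0.167) either, and averaged over drugs under the last 2 (0.0514 and 0.0900). An FPKM of at least 5 left Camkk2 untested. With the replicate block the 3 genes passed in both comparisons and 0 in the others, and no call among the 9 genes changed; over all genes the block gave 17 calls in Hispidulin+AB against Hispidulin+Sham, where the main count was 0. That count was 209 with library weights, 49 with only the libraries compared and 0 to 3 in the other fits. In DMSO+AB against DMSO+Sham, where the main count was 608, it was 142 with the animal number series, 383 without a filter and 1423 with library weights. Averaged over drugs, where it was 862, it was 547 with the series, 2535 with library weights and 373 to 1210 with 1 library left out, the 6 lowest (373 to 507) being without DMSO+Sham mouse 1, DMSO+AB mouse 2, Hispidulin+Sham mouse 1 or 2, or Hispidulin+AB mouse 1 or 3. In Hispidulin+AB against DMSO+AB it was 20 without DMSO+AB mouse 1 and 0 to 2 otherwise. The beta 2 share difference under the block was 19.9 points. The 5 pathway genes called in DMSO+AB against DMSO+Sham and Slc2a4 were refitted after the data had been seen. None changed sign, and Ppp1r3c passed in every fit. With only the libraries compared, Tbc1d4 (adjusted p = 0.0702), Nuak1 (0.124), Mlycd (0.192) and Foxo3 (0.231) did not pass, nor did Nuak1 (0.0711), Mlycd (0.165) or Foxo3 (0.145) with the animal number series, or Mlycd (0.0636) or Foxo3 (0.0718) with the replicate block, Mlycd (0.0738) or Foxo3 (0.078) without a filter, Mlycd (0.0627) or Foxo3 (0.0576) with median-of-ratios scaling, or Foxo3 with quantile normalization (0.0519) or without the trend (0.0521). Of 17 other fits, Tbc1d4 did not pass in 2, Nuak1 in 5, Mlycd in 11 and Foxo3 in 13.

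The AB minus Sham share differences without the 3 libraries were 18.6 points for beta 2 and 4.18 for gamma 2 (adjusted p = 0.1 for both, where 9 mice allow no p under 0.0167 before adjustment); with 1 library left out they were 18.4 to 21.9 and 3.79 to 6.03. The hispidulin minus DMSO differences, none of which passed, changed sign: without the 3 libraries to 1.01 points for beta 2 and 0.37 for gamma 2, and with 1 library left out over -0.0691 to 1.85 for alpha 2, -4.47 to 2.16 for beta 2 and -2.05 to 1.18 for gamma 2.

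Other sign changes were confined to log2 differences that did not pass in any setting. With the animal number series, Prkaa1 was -0.0083 in DMSO+AB against DMSO+Sham, -0.0094 in Hispidulin+Sham against DMSO+Sham, -0.0037 in Hispidulin+AB against Hispidulin+Sham, 0.0046 as interaction and -0.0060 averaged, Prkaa2 was 0.034 in DMSO+AB against DMSO+Sham, Acacb 0.013 in Hispidulin+Sham against DMSO+Sham and Stk11 -0.0048 as interaction. Without the 3 libraries, Prkaa2, Prkag2 and Stk11 were 0.0024, 0.047 and 0.017 in Hispidulin+AB against DMSO+AB, Prkaa1 and Acacb -0.099 and 0.0096 for the drug in Sham mice, and Prkaa1 0.0025 as interaction. Quantile normalization gave Prkaa2 0.0098 and Camkk2 0.00096 in DMSO+AB against DMSO+Sham and Prkaa2 0.0014 in Hispidulin+AB against DMSO+AB, median-of-ratios scaling gave Prkaa2 0.019, and library weights gave Camkk2 0.19 and, in Hispidulin+AB against DMSO+AB, Prkaa1 0.014. The cause was not tested.

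With 1 library left out, signs also changed within these ranges. In DMSO+AB against DMSO+Sham they were -0.0035 to 0.10 for Prkaa1, -0.15 to 0.10 for Prkaa2 and -0.18 to 0.20 for Camkk2. In Hispidulin+AB against DMSO+AB they were -0.058 to 0.054 for Prkaa1, -0.068 to 0.038 for Prkaa2, -0.0076 to 0.11 for Prkag1, -0.38 to 0.028 for Prkag2 and -0.20 to 0.025 for Stk11. In Hispidulin+Sham against DMSO+Sham they were -0.099 to 0.093 for Prkaa1, -0.033 to 0.14 for Prkab2 and -0.24 to 0.025 for Acacb. In Hispidulin+AB against Hispidulin+Sham they were -0.057 to 0.13 for Prkaa1 and -0.075 to 0.15 for Prkag2, as interaction -0.098 to 0.094 for Prkaa1 and -0.084 to 0.16 for Stk11, and averaged -0.0080 to 0.088 for Prkaa1.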

Other observations

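The promoters of the 6 AMPK genes not shown above were searched in the same RefSeq windows. Prkaa1 held 5 GC boxes with a GC content of 82.0%, Prkaa2 and Prkag1 held 2 each, and Stk11 and Camkk2 held 1 each. The 3 Prkag2 windows of the table held 2, 1 and 0. None of these windows held a TATA box.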
